A study of Saccharomyces cerevisiae with 17 samples.

Results

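The genes described here are 10 budding yeast genes known for their dependence on oxygen and heme. They form 4 pairs of paralogs, in which 1 copy is known as the aerobic form (CYC1, COX5A, HYP2 and AAC1) and the other as the hypoxic form (CYC7, COX5B, ANB1 and AAC3). HEM13, which encodes an oxygen-requiring enzyme of heme synthesis, and ROX1, which encodes a repressor of hypoxic genes, complete the set. The members were chosen by name, as the probe sets annotated to these genes, and make up 10 of the 5656 genes measured. Each was read by 1 probe set, and all 10 lay above the background of the control probe sets on all 16 arrays compared.

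RNA came from CEN.PK113-7D, a haploid laboratory strain of Saccharomyces cerevisiae with the genotype MATa MAL2-8C SUC2, grown in glucose-limited chemostats that were sparged with nitrogen to keep them anaerobic. A chemostat is a culture fed and drained at a constant rate, here a dilution rate of 0.03 per h. Cultures were either held at a constant temperature until steady state (SS) or taken through diurnal temperature cycles (DTC), a 24 h sine wave between 30 and 12 °C, with sampling spread over cycles 5 and 6. The series asked how far the response to the cycle can be foreseen from steady states. Of the 8 groups, 2 were steady states, SS 12 °C and SS 30 °C. The other 6 were points of the cycle, namely DTC 30 °C (hour 0), DTC 21 °C decreasing T (hour 6), DTC 14.6 °C (hour 9), DTC 12 °C (hour 12), DTC 21 °C increasing T (hour 18) and DTC 27.4 °C (hour 21). Strain, medium and absence of oxygen supply were shared by all groups, and no aerobic culture was among them, so "aerobic" and "hypoxic" are names of gene forms and not of conditions. All cycle arrays came from the same 2 cultures, whereas the steady states came from independent duplicates.

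In yeast much of the oxygen signal runs through heme, whose synthesis needs molecular oxygen. With heme present, Hap1 and the Hap2/3/4/5 complex activate genes of respiration, and Hap1 also activates ROX1, whose product holds hypoxic genes down. Without oxygen and heme this repression lifts, and the hypoxic copy of several duplicated genes takes over from the aerobic one. CYC7 is also known as a stress gene, so oxygen is not the only input to the pairs.

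The values were probe set signals on Affymetrix arrays, with 2 arrays in each group. Arrays of the same group correlated at 0.956 to 0.984, lowest at DTC 30 °C, where 610 genes lay over 2-fold apart. Between 5190 and 5320 genes per array lay above background, which was a signal of 13.9. An array numbered 3 at DTC 27.4 °C was kept out of all tests. The 5 MATa-specific genes examined were above background on 16 of 16 arrays. The MATalpha-specific genes did not all lie at background. STE3 read 34.9 to 112.6 and MF(ALPHA)1 192 to 2649, while MF(ALPHA)2 passed background on 6 of 16 arrays, and none of the 3 was at 0. Their summed signal was 2735 to 2764 at SS 12 °C and 264 to 348 at SS 30 °C, and its lowest and highest values in the cycle were 274.5 at 30 °C and 2130 at 12 °C. The part of these signals in the results below was not tested.

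Over the cycle the hypoxic forms did not move as 1 group. CYC7 and COX5B peaked at 21 °C while the temperature rose, whereas ANB1 and AAC3 were lowest there and high through cooling, together with HEM13. Of the aerobic forms, CYC1 and COX5A were highest at 30 °C and lowest at 12 °C. AAC1 was also lowest at 12 °C, with a smaller range, but its highest mean in the cycle was at 27.4 °C. HYP2 did not pass the test. Counted over the 6 cycle points, 8 of the 10 members varied in limma's moderated F test at a Benjamini-Hochberg adjusted p under 0.05, against 48.7% of all genes. HYP2 (adjusted p = 0.104) and ROX1 (adjusted p = 0.0729) were not called in that limma test. Among 22 alternative fits the call was made in 8 for ROX1 and in 2 for HYP2. Arrays were scaled to a common mean, so an equal change of all mRNA is not visible, and less RNA per cell cannot be told apart from fewer cells that express a gene.

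**Figure D1:**
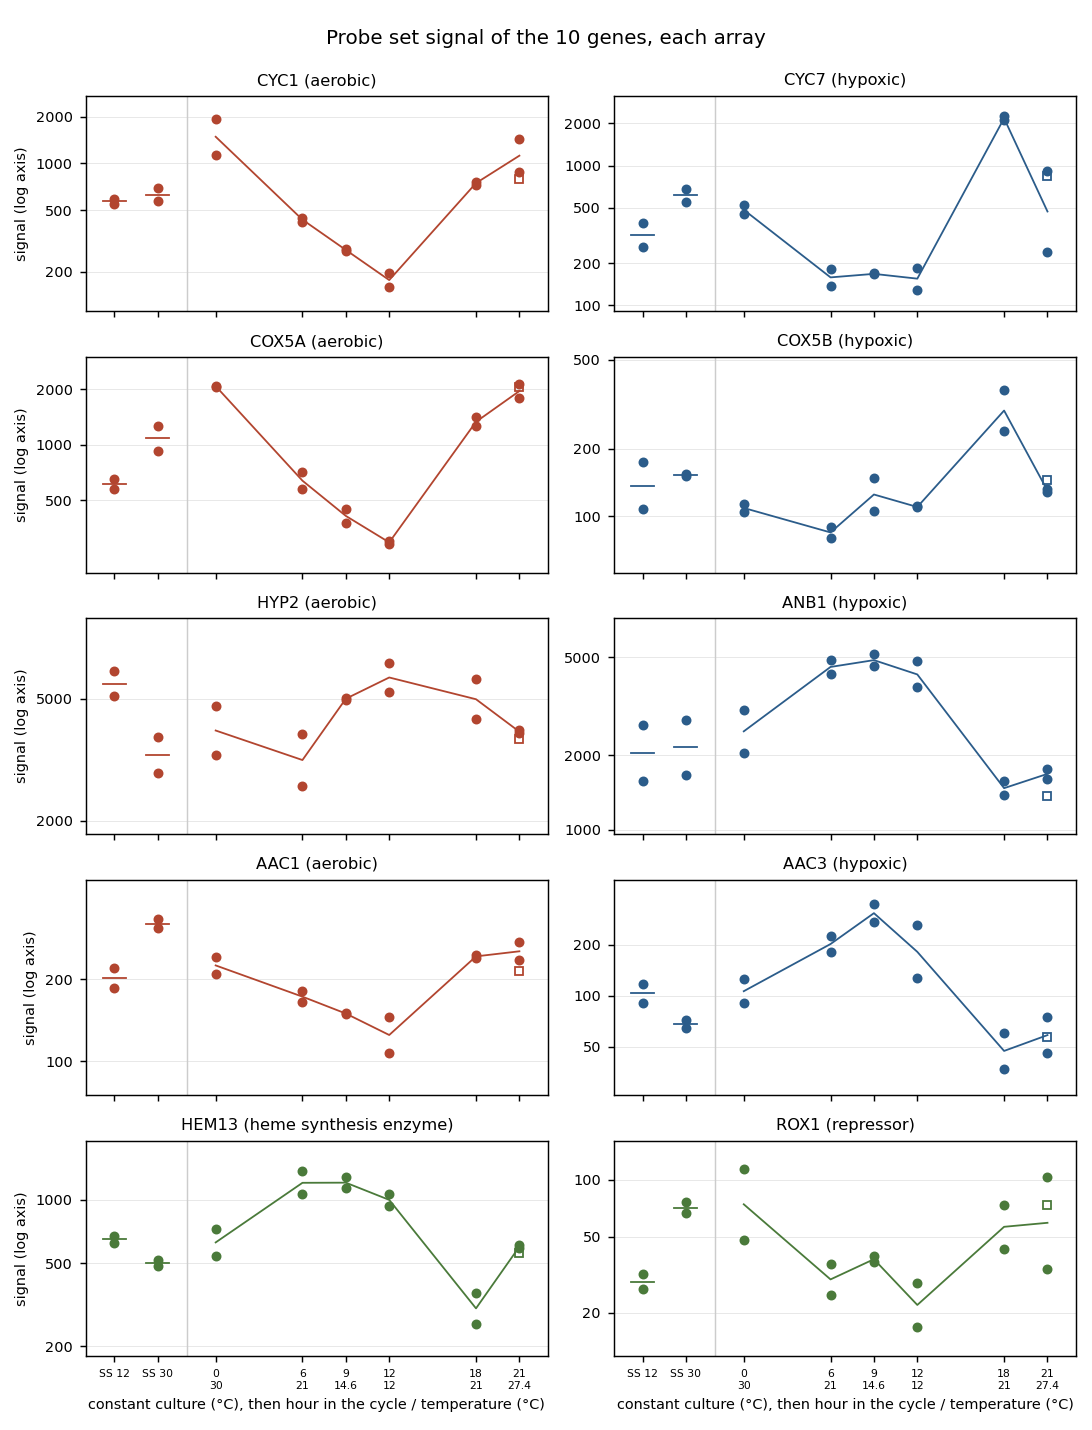
Signal of each member (log axis) on every array, by group, with steady states on the left and the 6 cycle points in order of the hour on the right. Points are arrays, lines (cycle) and short bars (steady states) give the mean of the log2 values of 2 arrays, open squares are the array numbered 3 at 27.4 °C, and red, blue and green mark aerobic forms, hypoxic forms and HEM13 with ROX1; CYC7 and COX5B stand highest at hour 18, where ANB1, AAC3 and HEM13 stand lowest.

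CYC1 encodes iso-1-cytochrome c, the main electron carrier between the respiratory complexes. Its signal was 1135 and 1946 at DTC 30 °C, 447 and 419.9 at 21 °C while falling, 273 and 280.3 at 14.6 °C, and 197 and 158 at 12 °C. On rewarming it was 729.5 and 763 at 21 °C and 1431 and 879 at 27.4 °C. The steady states lay between these, with 551 and 592 at 12 °C and 574.5 and 689 at 30 °C. The cycle points from 30 °C down to 12 °C thus stepped down without overlap between neighbouring points, while the arrays of the steady states overlapped. The cycle's range was 8.42-fold, and CYC1 varied over the cycle (limma, adjusted p = 2.04e-05).

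CYC7 encodes iso-2-cytochrome c, the copy known from cells short of oxygen or under stress. Its signal rose to 2111 and 2247 at 21 °C while the temperature increased. At the same temperature while it decreased, the signal was 138 and 182, next to 169.7 and 167 at 14.6 °C and 187 and 129 at 12 °C. These 3 points, from 21 °C falling to 12 °C, overlapped one another. Both arrays at 21 °C rising exceeded every other array of the series by more than the spread within their group. CYC7 gave 448 and 521 at DTC 30 °C, 389 and 260.0 at SS 12 °C, and 683 and 547 at SS 30 °C. At 27.4 °C its arrays read 919 and 240.1, the widest split of any member in any group, and the array numbered 3 read 845. The difference between 21 °C rising and 21 °C falling was 3.78 ± 0.47 on the log2 scale (standard error, limma), or 13.7-fold, with an adjusted p of 7.73e-05.

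COX5A and COX5B encode alternative forms of one subunit of cytochrome c oxidase, the terminal enzyme of respiration. COX5A read 2094 and 2065 at DTC 30 °C, 573 and 711.5 at 21 °C falling, 377 and 448 at 14.6 °C and 289 and 302 at 12 °C. It then read 1259 and 1408 at 21 °C rising and 1794 and 2132 at 27.4 °C, against 648 and 577 at SS 12 °C and 928 and 1268 at SS 30 °C. Over the 6 cycle points the order of the means was that of CYC1, with the lowest point at 12 °C and overlap between 27.4 and 30 °C, while SS 12 °C overlapped 21 °C falling for COX5A and lay above it for CYC1. COX5B was dimmer and flatter, with 113 and 104 at DTC 30 °C, 89.4 and 79.8 at 21 °C falling, 106 and 147 at 14.6 °C, and 110.3 and 109 at 12 °C. Only at 21 °C rising did it stand apart, at 366 and 239. Its other arrays lay between 79.8 and 173.5, and the groups from DTC 30 °C up to SS 30 °C each overlapped their neighbour in the order of levels. COX5B was 1.81 ± 0.27 higher on the log2 scale at 21 °C rising than at 21 °C falling (limma, adjusted p = 0.000317), and COX5A was 1.06 ± 0.21 higher (limma, adjusted p = 0.00240). Both forms of this subunit were therefore higher on rewarming.

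HYP2 and ANB1 encode 2 forms of eIF5A, a translation factor that carries the modified amino acid hypusine. The paralogs are near-identical in sequence and the probes were not examined here, so the part of each signal that comes from the other copy is uncertain. ANB1 read 2056 and 3054 at DTC 30 °C, 4879 and 4286 at 21 °C falling, 4621 and 5139 at 14.6 °C, and 4814.5 and 3776 at 12 °C. It then read 1383 and 1571 at 21 °C rising and 1764 and 1608.5 at 27.4 °C. Its arrays at the 3 points from 21 °C falling to 12 °C overlapped one another. They lay above all other groups, including SS 12 °C (1576 and 2658) and SS 30 °C (2785 and 1674). ANB1 was 1.63 ± 0.31 lower on the log2 scale at 21 °C rising than at 21 °C falling, a 3.1-fold difference (limma, adjusted p = 0.00156). HYP2 ranged from 2588 to 6540 over the 16 arrays, with the lowest group at 21 °C falling (2588 and 3850) and the highest at DTC 12 °C (6540 and 5274). SS 12 °C (6179 and 5093) overlapped DTC 12 °C, and 5 of the 7 neighbouring groups in the order of HYP2 levels overlapped. HYP2 passed the test in none of the 9 comparisons, although 3 alternatives called it between the steady states, 2 between the 21 °C points and 2 over the cycle.

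AAC1 and AAC3 encode ADP/ATP carriers of the mitochondrial inner membrane, beside the major carrier PET9. AAC3 read 125 and 90.5 at DTC 30 °C, 179.7 and 226 at 21 °C falling, 344 and 272 at 14.6 °C, and 259.8 and 126 at 12 °C. On rewarming it fell to 60.3 and 37.2 at 21 °C, with 75.2 and 45.8 at 27.4 °C. SS 12 °C gave 91.1 and 116.8 and SS 30 °C gave 72.1 and 64.4, so both arrays at 14.6 °C exceeded all arrays of every other group. AAC3 was 2.09 ± 0.37 lower on the log2 scale at 21 °C rising than at 21 °C falling, or 4.25-fold (limma, adjusted p = 0.00103). AAC1 moved the other way and less. Its signal was 209.5 and 242 at DTC 30 °C, 165 and 181 at 21 °C falling, 151 and 149 at 14.6 °C, 145 and 107 at 12 °C, 239.6 and 247 at 21 °C rising and 235 and 274 at 27.4 °C. SS 30 °C, with 308 and 333, was the highest group for AAC1 and overlapped no other, and SS 12 °C gave 186 and 219. AAC1 varied over the cycle (limma F test, adjusted p = 0.00521), with a range over the cycle of 1.02 on the log2 scale.

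HEM13 encodes coproporphyrinogen oxidase, a step of heme synthesis that consumes oxygen, and its gene is a known Rox1 target. HEM13 read 728 and 540.2 at DTC 30 °C, 1066 and 1368 at 21 °C falling, 1285 and 1138 at 14.6 °C, and 1071 and 936 at 12 °C. It was lowest at 21 °C rising, with 360.1 and 256, and read 609.6 and 588 at 27.4 °C. SS 12 °C (626 and 674) and SS 30 °C (518 and 482) lay between. The 3 points from 21 °C falling to 12 °C overlapped in part and stood above all others, and 21 °C rising stood below all others. The difference between 21 °C rising and falling was -1.99 ± 0.23 on the log2 scale (limma, adjusted p = 4.63e-05). ROX1 was the dimmest member, from 16.8 to 114.5, and its arrays differed widely within groups, as with 48.2 and 114.5 at DTC 30 °C, 103 and 34.1 at 27.4 °C and 74.0 and 43.2 at 21 °C rising. It read 24.8 and 36.0 at 21 °C falling, 39.7 and 36.7 at 14.6 °C, 28.6 and 16.8 at 12 °C, 26.5 and 32.0 at SS 12 °C, and 66.6 and 76.6 at SS 30 °C. No array of SS 12 °C, DTC 12 °C, DTC 14.6 °C or 21 °C falling reached the lowest array at SS 30 °C, whereas an array at 21 °C rising did. The change of ROX1 between the 21 °C points, 0.92 ± 0.52 (limma, adjusted p = 0.193), did not pass.

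The comparison at 21 °C, the same temperature reached on the way up and on the way down, called members in both directions. Of the 10 members, 3 were higher on rewarming (CYC7, COX5B and COX5A) and 3 lower (HEM13, AAC3 and ANB1), against a background of 33.9% of all genes called, 15.2% higher and 18.7% lower. All 4 hypoxic forms were called, 2 in each direction, and 1 of 4 aerobic forms. These 6 calls held under all 13 alternatives run for each, including the omission of any of the 4 arrays. CYC1, at 0.78 ± 0.28, stood at the threshold (limma, adjusted p = 0.0504) and was called in 4 of 13 alternatives. HYP2 (0.66 ± 0.27) and AAC1 (0.49 ± 0.20) were each called in 2 of 13 alternatives.

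**Figure D2:**
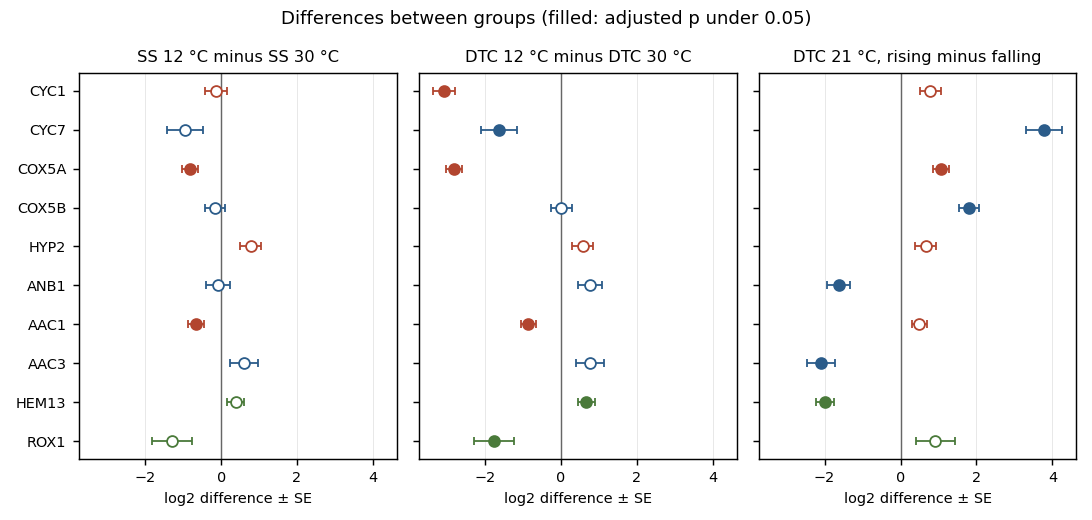
Log2 difference of each member, with its standard error from limma, between the steady states (left), the extremes of the cycle (middle) and the 21 °C points, rising minus falling (right); red, blue and green mark aerobic forms, hypoxic forms and HEM13 with ROX1. Filled circles have an adjusted p under 0.05 and open circles do not; in the right panel CYC7 lies at 3.78 and COX5B at 1.81, while ANB1, AAC3 and HEM13 lie between -2.09 and -1.63.

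Between the extremes of the cycle, DTC 12 °C against DTC 30 °C, 5 members were lower in the cold and 1 was higher, where 32.8% of all genes were called (16.3% lower and 16.5% higher). COX5A was 2.82 ± 0.21 lower on the log2 scale, a 7.04-fold difference (limma, adjusted p = 7.48e-06), and CYC1 was 8.42-fold lower (limma, adjusted p = 1.81e-05). AAC1 was 0.85 ± 0.20 lower (limma, adjusted p = 0.00743), CYC7 1.64 ± 0.47 lower (adjusted p = 0.0197) and ROX1 1.76 ± 0.52 lower (adjusted p = 0.0213). HEM13 was 0.67 ± 0.23 higher (limma, adjusted p = 0.0417), a call lost when arrays were centred on their median (adjusted p = 0.0584). With only these groups in the model HEM13, AAC1 and ROX1 were not called (limma, adjusted p = 0.167, 0.111 and 0.0968). ANB1 and AAC3 differed by 0.77 each, HYP2 by 0.58 and COX5B by 0.01, and none of these passed. With an intensity trend and a robust prior ANB1 was called (limma, adjusted p = 0.0427). The calls of CYC1 and COX5A held under every alternative run. Without array 2 of DTC 30 °C the changes of CYC7 (-1.53), AAC1 (-0.75), HEM13 (0.46) and ROX1 (-1.14) were not called. Without array 2 of DTC 12 °C the same was true of CYC7 (-1.37), AAC1 (-0.63), HEM13 (0.77) and ROX1 (-1.38), while AAC3 (1.29) was called. Without array 1 of DTC 12 °C, HEM13 (0.58) was not called.

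At constant temperature the same 2 temperatures were compared. Between SS 12 °C and SS 30 °C, 2 of the 10 were called, both lower in the cold, against 22.2% of all genes, 12.2% lower and 9.97% higher. COX5A was 0.83 ± 0.21 lower (limma, adjusted p = 0.0179) and AAC1 0.66 ± 0.20 lower (limma, adjusted p = 0.0366). CYC1 differed by -0.14 ± 0.28 between the steady states, CYC7 by -0.94 ± 0.47, ROX1 by -1.29 ± 0.52 and HYP2 by 0.78 ± 0.27, none of which passed. Both calls were lost when arrays were centred on their median (adjusted p = 0.0504 for COX5A and 0.104 for AAC1 in limma), a setting in which HYP2 passed. They were also lost with only these groups in the model (adjusted p = 0.0854 and 0.0961, limma), a setting in which ROX1 passed (adjusted p = 0.0322, limma). The omission of 1 array lost AAC1 in all 4 cases (changes from -0.78 to -0.55). For COX5A it lost the call without array 1 (-0.91) or array 2 (-0.74) of SS 12 °C and without array 2 of SS 30 °C (-0.60).

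The difference between both temperature effects was tested itself. The cold effect in the cycle differed from that at steady state by -2.93 ± 0.40 on the log2 scale for CYC1 (limma, adjusted p = 0.00118) and by -1.99 ± 0.30 for COX5A (limma, adjusted p = 0.00206). These 2 of 10 members compare with 12.9% of all genes called, 6.33% negative and 6.56% positive. For the 4 hypoxic forms the difference ranged from -0.69 ± 0.67 for CYC7 to 0.84 ± 0.44 for ANB1, and none passed. For AAC1 it was -0.19 ± 0.29, with a cold effect of -0.66 at steady state and -0.85 in the cycle.

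Cycle and steady state were also compared at equal temperature. At 12 °C, 3 members were lower in the cycle and 1 was higher, against 18.2% of all genes, 9.35% lower and 8.84% higher. CYC1 was 1.69 ± 0.28 lower (limma, adjusted p = 0.00266), COX5A 1.05 ± 0.21 lower (adjusted p = 0.00738) and AAC1 0.70 ± 0.20 lower (adjusted p = 0.0353). ANB1 was 1.06 ± 0.31 higher in the cycle (limma, adjusted p = 0.0351). With only these groups in the model none of the 4 was called (adjusted p = 0.0700 for CYC1, 0.0771 for COX5A, 0.137 for ANB1 and 0.176 for AAC1, limma). ANB1 was not called without array 1 of SS 12 °C (0.68), array 1 of DTC 12 °C (0.88) or array 2 of DTC 12 °C (1.23). AAC1 was not called without array 1 (-0.81) or array 2 (-0.58) of SS 12 °C or array 2 of DTC 12 °C (-0.48). At 30 °C none of the 10 members was called by limma, against 1.2% of all genes (0.336% higher and 0.866% lower), and 3 had an unadjusted p under 0.05. Of these 3, AAC1 was lower in the cycle, with a difference of -0.51 ± 0.20 (adjusted p = 0.347, limma). CYC1 was 1.24 ± 0.28 above its steady state there (adjusted p = 0.0602) and COX5A 0.94 ± 0.21 (adjusted p = 0.0604, limma). With an intensity trend and a robust prior in limma both passed, and without array 1 of DTC 30 °C CYC1 (1.63) passed. COX5A also passed with a floor of 12 and with the array numbered 3 included, and CYC1 with only genes above background. Each was called in 3 of 13 alternatives.

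A further 2 steps of the cycle, cooling from 30 to 21 °C and rewarming from 12 to 21 °C, were added after the values had been seen. They share arrays with the comparisons above, so their calls are no separate evidence. In cooling, where 11.2% of all genes were called (5.94% lower and 5.22% higher), CYC1 fell by 1.78, COX5A by 1.70 and CYC7 by 1.61, and HEM13 rose by 0.95 on the log2 scale (limma, adjusted p from 0.000791 to 0.0486). With only these groups in the model none of the 4 was called (limma, adjusted p = 0.0871 for COX5A, 0.0925 for CYC7, 0.101 for CYC1 and 0.160 for HEM13). The CYC7 call was lost without any 1 of the 4 arrays (changes from -1.80 to -1.41). It was also lost with a floor of 12, the array numbered 3 or all probe sets (limma, adjusted p = 0.0731, 0.0510 and 0.0689). HEM13 was not called without array 2 of DTC 30 °C (0.73), array 1 of 21 °C falling (1.13) or array 2 of 21 °C falling (0.77). In rewarming, where 46.1% of all genes were called (22% higher and 24% lower), 6 members rose and 3 fell. CYC7 rose by 3.81 ± 0.47, COX5A by 2.17 ± 0.21, CYC1 by 2.08 ± 0.28, COX5B by 1.43 ± 0.27, ROX1 by 1.37 ± 0.52 and AAC1 by 0.96 ± 0.20. AAC3 fell by 1.94, HEM13 by 1.72 and ANB1 by 1.53 (limma, adjusted p between 7.04e-06 for COX5A and 0.0473 for ROX1). ROX1 was not called without array 2 of DTC 12 °C (0.98), array 1 of 21 °C rising (0.98) or array 2 of 21 °C rising (1.76). Its call was also lost with a floor of 12, only these groups, the replicate block or all probe sets (limma, adjusted p from 0.0509 to 0.0758).

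The balance within each pair was followed as the log2 ratio of the aerobic to the hypoxic form on each array. Signals of different probe sets are not on a common scale, so only the change of a ratio between groups is read. For CYC1 over CYC7 the ratio was 1.34 and 1.90 at DTC 30 °C, 0.08 and 0.29 at 12 °C, and -1.53 and -1.56 at 21 °C rising. The 21 °C falling arrays, at 1.69 and 1.21, overlapped those at 30 °C, so the mean ratio was 3.00 lower on rewarming than on cooling at equal temperature. The arrays at 27.4 °C were split, at 0.64 and 1.87, with -0.10 on the array numbered 3. For COX5A over COX5B it was 4.21 and 4.31 at DTC 30 °C, 1.39 and 1.47 at 12 °C and 1.78 and 2.56 at 21 °C rising, with 2.68 and 3.16 at 21 °C falling.

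The carrier and eIF5A pairs turned the other way at 21 °C. HYP2 over ANB1 was -0.91 and -0.15 at 21 °C falling and 2.06 and 1.45 at 21 °C rising, a difference of 2.29. AAC1 over AAC3 was -0.13 and -0.32 at 21 °C falling and 1.99 and 2.73 at 21 °C rising, a difference of 2.58, with its lowest values at 14.6 °C (-1.19 and -0.87). Relative to 21 °C falling, the balance at 21 °C rising thus lay towards the hypoxic form for cytochrome c and towards the aerobic form for eIF5A and the carrier. For the oxidase subunit the same difference was -0.75, smaller and towards the hypoxic form. At steady state the cold difference of the ratios was 0.80 for cytochrome c, -0.66 for the oxidase subunit, 0.85 for eIF5A and -1.26 for the carrier. The standard errors of these differences, pooled over the 8 groups, were 0.43, 0.30, 0.37 and 0.39 in the same order. An exact permutation test of 2 arrays against 2 cannot reach a p of 0.05, and no test of single ratio differences was run.

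An exact permutation test over all 10395 pairings of the 12 cycle arrays asked whether a ratio was more alike within the points than between them. The p was 0.0126 for CYC1 over CYC7 (span of the point means 3.17), 0.000192 for COX5A over COX5B (2.83) and 0.00308 for AAC1 over AAC3 (3.39). For HYP2 over ANB1 (span 2.29) the exact permutation p was 9.62e-05, the smallest these pairings can give. The 4 pairs were tested with no adjustment, and the test treats arrays that share cultures as exchangeable.

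**Figure D3:**
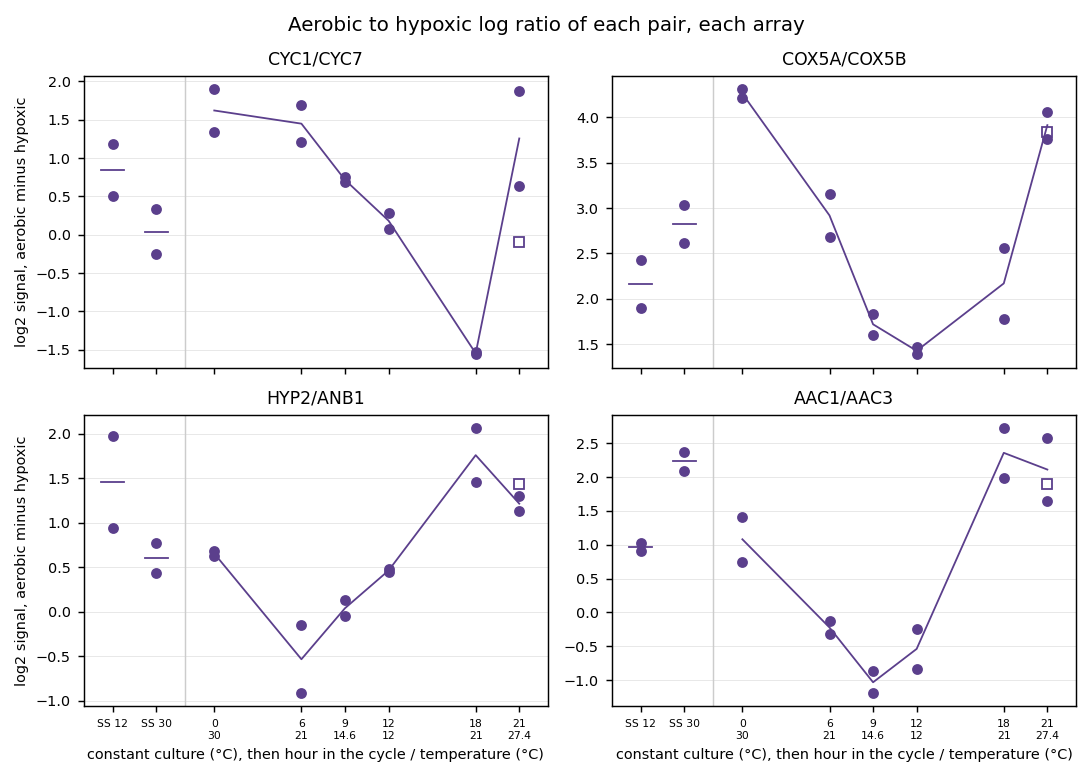
Log2 ratio of the aerobic to the hypoxic form of each pair, on every array, by group. Points are arrays, lines (cycle) and short bars (steady states) are means of 2 arrays and open squares are the array numbered 3 at 27.4 °C; at hour 18 the CYC1 over CYC7 ratio has its minimum, -1.55, while the HYP2 over ANB1 and AAC1 over AAC3 ratios have their maxima, 1.76 and 2.36.

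A cosine of 24 h was fitted to the 12 cycle arrays as a description. The peaks fell in 3 stretches of the cycle. CYC1 peaked at hour 23.3, COX5A at 22.8, AAC1 at 22.1 and ROX1 at 22.7, around the warm extreme. CYC7 peaked at hour 19.0 and COX5B at 16.8, with HYP2 at 14.4. ANB1 at hour 7.61, AAC3 at 7.47 and HEM13 at 6.82 peaked during cooling. The amplitudes were 1.53 for CYC7, 1.44 for CYC1, 1.39 for COX5A, 1.20 for AAC3, 0.86 for ANB1 and HEM13, 0.72 for COX5B, 0.70 for ROX1, 0.45 for AAC1 and 0.44 for HYP2 on the log2 scale, beside a median of 0.44 over all genes. The share of variance taken up by the cosine was 0.974 for COX5A and 0.916 for ANB1, 0.672 for CYC7, 0.609 for COX5B, 0.541 for HYP2 and 0.488 for ROX1, so the peak hours of the last 4 describe their profiles less closely.

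**Figure D4:**
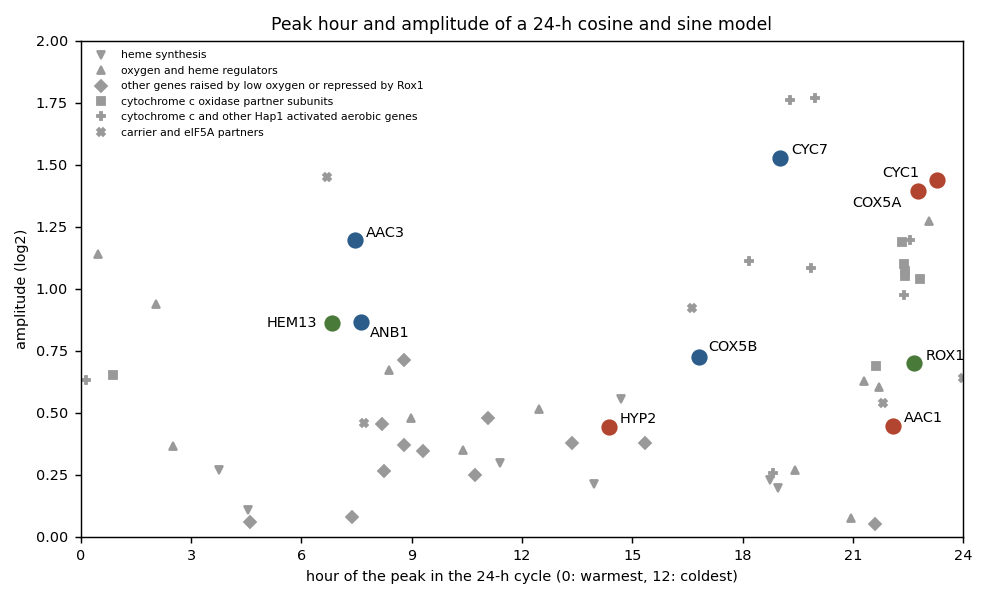
Hour of the peak and log2 amplitude of each member in a 24 h cosine fitted to the 12 cycle arrays, in red (aerobic), blue (hypoxic) and green (HEM13, ROX1), with the genes of the partner lists in grey. ANB1, AAC3 and HEM13 lie between hours 6.82 and 7.61, CYC7 and COX5B between 16.8 and 19.0, and CYC1, COX5A, AAC1 and ROX1 between 22.1 and 23.3.

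Profiles over the 16 arrays, which share cultures and are given as a description, followed the same lines. Pearson's r was 0.94 between CYC1 and COX5A, 0.80 between CYC7 and COX5B, 0.92 between AAC3 and HEM13, 0.88 between ANB1 and AAC3 and 0.84 between ANB1 and HEM13. It was -0.90 between CYC7 and HEM13. Within the pairs r was 0.63 for cytochrome c, 0.29 for the oxidase subunit, 0.06 for eIF5A and -0.74 for the carrier. In the R64 assembly CYC1 and ANB1 are neighbours on chromosome X on opposite strands, with 0 protein-coding genes between them, and their r was -0.64. CYC7 and HYP2 lie on chromosome V with 4 protein-coding genes between them, and their r was -0.00361.

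Among the 5280 genes above background on average, AAC3 and HEM13 were each other's closest profile. The closest profile to CYC1 was that of MRPL13 (r = 0.96), followed by MRA1 and SDH3, and the closest to COX5A was GPG1 (0.98), followed by COX6 and MRPL35. CYC7 was nearest to SOL1 (0.95), TPK2 and SNC1, and COX5B to YGR201C (0.88), AIM7 and ALD3. ANB1 was nearest to YJL118W (0.91), UTR2 and AAH1, and AAC3, after HEM13, to UTR2 and YBL081W. After AAC3, HEM13 was nearest to SRO9 and CNS1. AAC1 was nearest to SDH9 (0.93), YOR186W and SDH8, HYP2 to ASG7 (0.87), VCX1 and HSV2, and ROX1 to ZEO1 (0.90), HAL1 and CUR1.

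The partners of the members were examined as lists. All 7 partner subunits of cytochrome c oxidase fell between DTC 30 °C and DTC 12 °C, as COX5A did, with COX7 lower by 2.62 ± 0.34 and COX4 by 2.31 ± 0.21 on the log2 scale (limma, adjusted p = 0.000176 and 1.67e-05). Their median change was -2.23, beside 0.05 over all genes. None of the 7 was called by limma between the steady states, where 1 had an unadjusted p under 0.05, and all 7 passed the test of the difference between both cold effects. Over all genes the shares called in these 3 comparisons were 32.8%, 22.2% and 12.9%. At 21 °C rising 6 of 7 were higher than at 21 °C falling, as were 15.2% of all genes. Of 8 cytochrome c and other Hap1-activated genes, 6 were lower at DTC 12 °C, against 16.3% of all genes, among them QCR2 (-2.65), a subunit of complex III, and CYC3 (-1.98), the enzyme that attaches heme to cytochrome c. Of these 8, 5 were higher at 21 °C rising, against the same 15.2%. At SS 12 °C 3 of the 8 were lower, against 12.2% of all genes, namely CYC3 (-2.01), SOD2 (-1.27), chosen after its value was seen, and the catalase CTT1, at least 2.2-fold lower because it did not pass background at SS 12 °C.

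Heme synthesis genes other than HEM13 were mostly not called. Of the 7, HEM12 (0.71) and HEM15 (0.58), the ferrochelatase, were higher at DTC 12 °C than at DTC 30 °C. Their adjusted p in limma was 0.0307 and 0.0455, and 16.5% of all genes were higher in this comparison. None of the 7 was called between the steady states in limma, against 22.2% of all genes, nor had any an unadjusted p under 0.05. At 21 °C rising HEM15 was 0.99 higher than at 21 °C falling (limma, adjusted p = 0.00253), where HEM13 was lower. Of 12 regulators of oxygen and heme response, 4 fell between DTC 30 °C and DTC 12 °C and none rose, a share called near the 32.8% of all genes, with HAP4, the activating subunit of its complex, lower by 2.53 ± 0.38 and SUT1 by 2.34 ± 0.29 (limma, adjusted p = 0.000373 and 0.00012). The other 2, HAP3 (-1.65) and HAP5 (-1.31), were chosen after their values were seen. MOT3, also among the 12, passed background on 0 of 16 arrays, so its change could not be read. At SS 12 °C SUT1 (-3.91) and UPC2 (-1.04), an activator of sterol uptake, were lower, 2 of 12 called against 22.2% of all genes. At 21 °C rising HAP5 (1.17) was higher and HAP3 (-0.92) and UPC2 (-0.89) were lower than at 21 °C falling, 3 of 12 called against 33.9% of all genes.

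Other genes known to rise in low oxygen, 12 of 14 measured (all but DAN2 and DAN3), were read beside HEM13. At DTC 12 °C 4 of the 12 were higher than at DTC 30 °C and none lower, a share called near the 32.8% of all genes, among them the metal transporter FET4 (1.18 ± 0.28) and the cell wall gene DAN1 (0.90 ± 0.25). At 21 °C rising 3 were lower than at 21 °C falling and none higher, against 18.7% of all genes lower and 15.2% higher, namely FET4 (-1.29), AUS1 (-0.84) and TIR2 (-0.76), of which AUS1 was chosen after its value was seen. Between the steady states TIR2 (1.69) and FET4 (1.41) were among 3 genes higher in the cold, and DAN4 (-1.08) was lower. Over all genes 9.97% were higher and 12.2% lower there. Of the 5 partners of the carriers and of eIF5A, PET9, the major ADP/ATP carrier, was lower by 1.09 ± 0.23 at DTC 12 °C, and so was the phosphate carrier MIR1, by 1.36 ± 0.28, while LIA1, which completes hypusine, was 0.84 ± 0.29 higher (limma, adjusted p = 0.00325, 0.00275 and 0.0424). At 21 °C rising LIA1 was lower than at 21 °C falling by 3.16 and DYS1, which begins the same modification, by 1.05, while PIC2 was 2.10 and PET9 0.77 higher. Between the steady states PIC2 (1.002) and DYS1 (0.82) were higher at 12 °C. Of these 5 partners, 3 were called between the extremes of the cycle, 4 between the 21 °C points and 2 between the steady states. Over all genes the shares called were 32.8%, 33.9% and 22.2% in the same order.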

How the data were processed

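The authors deposited a linear intensity for each of 9335 probe sets on 17 arrays. The submitters' processing notes name RMA. The values reach 0 (5 to 23 per array), and each array has the same mean of about 240.2 with 2% trimmed at each end, so how they were made is unknown and they were used as deposited. The genome build is not given in the sources used here, and no coordinates are printed.

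From these values, a floor of 1 was set before the log2 step. The platform annotation gave 6504 probe sets a single gene, 328 several and 2443 none, and 60 were controls. All 6504 were matched to R64 names, and the probe set of highest mean stood for each of 5656 genes. Background (log2 3.80) was taken as percentile 95 of 28 control probe sets. limma 3.58.1 (R 4.3.3) was fitted to all genes with 1 mean per group over 16 arrays (8 residual degrees of freedom), with two-sided moderated tests and Benjamini-Hochberg adjustment over all genes, and was tested on simulated data. Pair ratios were tested by exact permutation.

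Hours come from the sine formula per the labels. The array numbered 3 at 27.4 °C was left out because the series mentions an analytical duplicate at this point, and the labels tie neither it nor the other cycle arrays to a culture. The p-values measure the spread between arrays, and 2 arrays per group limit the precision. The limma fit treats the cycle arrays as independent, although all of them came from the same 2 cultures. Members and lists were chosen with earlier results of these data known. The rule named all members, of each list up to 2 rises and 2 falls without overlap between arrays in DTC 12 °C versus 30 °C and SS 12 °C versus 30 °C, and the 3 closest profiles of each member. Genes named at 21 °C from the lists were chosen after their values were seen. Alternatives were quantile normalization, median centring, an intensity trend with a robust prior, a floor of 12, all probe sets, no dim genes, only the groups compared, the array numbered 3, the replicate number as a block and the omission of each array. Promoter motifs were not analysed here.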

Additional observations from a re-analysis of the deposited data

Results flagged for a closer look

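In 2 of the 10 members the cold effect differed between the cycle and the steady states, against 12.9% of all genes. This was a test of the difference itself, the interaction term in limma. For CYC1 the difference was -2.93 on the log2 scale, with a cold effect of -3.07 in the cycle and -0.14 at steady state. For COX5A it was -1.99, with -2.82 in the cycle and -0.83 at steady state.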

How the results depend on the processing

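Over all alternatives, 1191 of 1300 member values kept their direction and their side of the threshold, 55 lost a call, 31 gained one and 23 changed sign, the last in 12 results that were never called in the main model. The permutation calls of all 4 pair ratios held under the alternatives run for them, namely quantile normalization, the floor of 12, the array numbered 3, the replicate block and the omission of each array. The cause of each change below was not tested, except that fits of only the groups compared have fewer residual degrees of freedom and their own estimate of the spread. In those fits the genes called at the 21 °C points went up from 1915 to 2398 and the members called from 6 to 8. In the same fits the genes called went from 1256 to 685 for SS 12 °C versus SS 30 °C, from 1855 to 782 for DTC 12 °C versus DTC 30 °C, from 729 to 343 for the difference of both effects and from 631 to 1 for DTC 21 °C decreasing T versus DTC 30 °C. They went from 68 to 0 for DTC 30 °C versus SS 30 °C and from 1029 to 0 for DTC 12 °C versus SS 12 °C, where limma gave 448 and 1568 genes an unadjusted p under 0.05. With an intensity trend and robust prior DTC 30 °C versus SS 30 °C called 106 genes. With 1 array omitted the genes called ranged from 565 to 954 for the steady states, 1225 to 1663 for the extremes of the cycle, 15 to 49 for DTC 30 °C versus SS 30 °C, 365 to 703 for DTC 12 °C versus SS 12 °C, 410 to 753 for the difference of both effects, 191 to 606 for cooling to 21 °C and 1290 to 1362 for the 21 °C points (1915 with all arrays).

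Signs changed only in uncalled values. Median centring turned ANB1 to 0.043 between the steady states, COX5B to -0.035 between the extremes of the cycle and HYP2 to -0.0049 between DTC 12 °C and SS 12 °C. Quantile normalization turned the difference of both effects to 0.39 for HYP2 and -0.079 for AAC3. With 1 array omitted, values ranged from -0.45 to 0.30 for ANB1 and -0.51 to 0.18 for COX5B between the steady states, and from -0.046 to 0.075 for COX5B between the extremes. They ranged from -0.57 to 0.68 for ROX1 and -0.15 to 0.58 for ANB1 between DTC 30 °C and SS 30 °C, and from -0.089 to 0.22 for HYP2 and -0.66 to 0.033 for COX5B between DTC 12 °C and SS 12 °C. For the difference of both effects they ranged from -0.46 to 0.062 for HYP2, -0.35 to 0.69 for AAC3, -0.17 to 0.53 for COX5B, -1.09 to 0.16 for ROX1 and -0.41 to 0.034 for AAC1.

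Median centring moved the median change of all genes by 0.12 between the steady states and the 21 °C points, by 0.11 in rewarming and by -0.17 for the difference of both effects. It changed the genes called higher and lower from 564 and 692 to 730 and 567 between the steady states, from 371 and 358 to 268 and 476 for the difference of both effects, and from 19 and 49 to 23 and 31 between DTC 30 °C and SS 30 °C.

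No label says that a replicate number marks a culture, and deviations of same-numbered arrays correlated between groups at -0.40 to 0.49, so the numbers were not taken as pairs. Which cycle arrays share a culture stays unknown. With the replicate number as a block, 1263 genes were called between the steady states and 1938 between the 21 °C points, and of the members only the ROX1 call in rewarming was lost (adjusted p = 0.0562, limma). The number of arrays and the dim signal of ROX1 limit what could be seen.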
